A study of Homo sapiens with 12 samples.

Results

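The Rab small GTPases were taken as every symbol made of RAB, a number and at most 1 letter that was detected, with a p-value under 0.01, on 4 or more of the 12 arrays. Of 60 such symbols on the array 38 met this rule, among 12508 symbols detected in the same way and 31424 symbols with a deposited value. The RNA came from 2 T-ALL lines (Jurkat, Molt4) and 2 BCP-ALL lines (Nalm6, RS4;11), each stably transduced with a lentiviral pLKO1-mCherry vector that carried shCREB2, shCREB3 or a scrambled shRNA (Scrambled). The shCREB vectors are directed against CREB, a transcription factor of cAMP signalling, and the comparison asks what its knockdown did to RNA levels in leukemic cells. There was 1 array for each combination of line and vector, so the 4 lines are the replicates. An established line stands for a single leukemia, all arrays carry a vector, and p-values measure the spread between these samples only.

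Rab proteins are molecular switches that sit on membranes in their GTP-bound form and recruit the motors, tethers and fusion factors of vesicle traffic. Exchange factors load them with GTP, GTPase-activating proteins switch them off, and prenylation with escort proteins and GDI carries them between cytosol and membrane. Different Rabs mark different compartments, and in lymphocytes they serve receptor recycling, the immune synapse and granule release.

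The value of a gene is the deposited quantile-normalized mean over its probes, put on the log2 scale, and is written below as a log2 signal. Such signals are compared between arrays and never between genes. Of the 38 Rabs, 26 were detected on all 12 arrays and 12 on 4 to 11 arrays. By assigned compartment 10 belong to the ER and Golgi, 9 to the early endosome and 8 to recycling and polarised exocytosis. The late endosome and lysosome-related organelles have 6, with RAB23 and RAB28 placed there, regulated secretion has 3, and 2 belong to no such class. The 22 symbols left out had 15 that were detected on 0 arrays and 7 on 1 to 3 arrays. Just inside the rule lay RAB38, a Rab of melanosome formation, with 5 arrays, and just outside it RAB20, RAB30 and RAB32 with 3 arrays each. RAB32, which acts in lysosome-related organelles, had log2 signals of 8.97 with shCREB2, 9.79 with shCREB3 and 9.77 with Scrambled in Molt4 and between 6.63 and 6.80 on the 9 arrays of the other lines. Levels per cell and the number of cells that express a gene cannot be told apart in such bulk RNA.

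The RNA signal of CREB1, the gene of CREB, was not lower with shCREB2 or shCREB3, going by the array labels, and CREB protein is not part of the data analysed here, so every direction below is that of the arrays so labelled. Its log2 signal was 9.47 to 10.23 with shCREB2, 9.61 to 10.39 with shCREB3 and 9.50 to 10.13 with Scrambled, and it was higher than Scrambled of the same line on 6 of 8 arrays (log2 difference 0.16 ± 0.07 standard error, limma adjusted p = 0.228). This mean covers 5 probes, of which 2 were detected on all 12 arrays. Between 14320 and 15660 probes were detected per array, and the Nalm6 array with shCREB2 correlated with any other array at no more than 0.971, against 0.987 to 0.998 for the other 11. Of 10 T cell markers 10 were detected on all 6 T-ALL arrays and 2 on all 6 BCP-ALL arrays. Of 10 markers of B cell precursors 2 were detected on all 6 T-ALL arrays and 8 on all 6 BCP-ALL arrays, with PAX5 on 0 arrays of either. None of 7 myeloid and 6 erythroid markers was detected on all 6 arrays of either lineage. On 0 arrays were 5 myeloid and 4 erythroid markers in T-ALL, and 4 and 3 in BCP-ALL. CSF1R, with a mean log2 signal of 9.16 in RS4;11, and LYZ, with 7.91 in Nalm6, were each detected on 3 BCP-ALL arrays. S100A9 was detected on 3 T-ALL arrays, CD14 on 4 of each lineage, and HBA2 on 4 T-ALL and 2 BCP-ALL arrays.

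RAB8B, which carries vesicles to the plasma membrane together with its close paralog RAB8A, was lower than Scrambled on all 8 shCREB arrays. Its promoter and those of RAB8A, RAB21 and RAB22A are shown because the results below turn on these genes and because CREB is known to bind the palindrome TGACGTCA and its 5-base core TGACG. The sequences are RefSeq windows of GRCh38.p14 from 250 bases before to 10 bases after the annotated start, 5′ to 3′, with each core, read on either strand, in capitals.
RAB8B, chr15:63189356-63189615, + strand: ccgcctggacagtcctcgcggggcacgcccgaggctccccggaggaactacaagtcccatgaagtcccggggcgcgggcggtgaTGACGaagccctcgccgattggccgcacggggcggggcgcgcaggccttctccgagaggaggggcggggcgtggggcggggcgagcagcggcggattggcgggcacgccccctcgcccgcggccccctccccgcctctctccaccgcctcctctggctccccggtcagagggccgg
RAB8A, chr19:16111639-16111898, + strand: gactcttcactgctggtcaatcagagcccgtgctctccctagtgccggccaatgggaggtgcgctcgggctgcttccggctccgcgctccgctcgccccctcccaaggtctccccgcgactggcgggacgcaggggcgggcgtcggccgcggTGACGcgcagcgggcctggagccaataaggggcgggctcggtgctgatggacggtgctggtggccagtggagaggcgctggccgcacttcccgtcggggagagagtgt
RAB21, chr12:71754613-71754872, + strand: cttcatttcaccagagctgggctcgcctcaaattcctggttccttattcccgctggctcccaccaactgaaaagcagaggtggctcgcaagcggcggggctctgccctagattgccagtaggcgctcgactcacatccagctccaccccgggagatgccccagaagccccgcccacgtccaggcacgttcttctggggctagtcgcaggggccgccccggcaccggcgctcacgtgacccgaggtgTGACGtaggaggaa
RAB22A, chr20:58309465-58309724, + strand: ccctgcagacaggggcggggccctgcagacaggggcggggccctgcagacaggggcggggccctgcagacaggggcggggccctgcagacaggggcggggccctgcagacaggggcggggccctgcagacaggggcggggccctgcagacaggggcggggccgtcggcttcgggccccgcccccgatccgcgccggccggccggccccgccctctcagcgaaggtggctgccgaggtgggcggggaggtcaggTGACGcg

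Counted from the start site as 1 with no position 0, the core began at -166 in RAB8B, at -98 in RAB8A, at -4 in RAB21 and at 4 in RAB22A. RefSeq windows of 300 bases were at hand for 29 of the 38 Rabs, with 45 annotated starts. The palindrome was in 0 of these 45 windows, against 1.85% of 35116 windows of all genes. The core was in 17 of the 45 windows of Rabs (37.8%), against 24.6% of all windows. The 4 windows printed all hold the core, although RAB8A passed no test against Scrambled, and they do not stand for the Rabs that changed. Of the Rabs below that went 1 way on all 8 shCREB arrays, RAB8B, RAB21 and RAB40C had the core. RAB5C, RAB9A, RAB18, RAB11A and RAB4A did not have it. No window was at hand for RAB1A. A match gives the letters only, and binding was not measured.

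In Jurkat, RAB8B had a log2 signal of 8.85 with shCREB2 and 9.44 with shCREB3, against 10.31 with Scrambled. In Molt4 it had 8.61 with shCREB2 and 9.06 with shCREB3, against 9.92 with Scrambled. In Nalm6 the signal was 7.93 with shCREB2 and 8.14 with shCREB3, against 9.16 with Scrambled. The fall was smaller in RS4;11, with 8.88 for shCREB2 and 9.05 for shCREB3, against 9.27 for Scrambled. In each line shCREB2 gave the lowest and Scrambled the highest signal, and across lines the shCREB2 and Scrambled arrays did not overlap. RAB8B averaged 8.57 ± 0.44 with shCREB2, 8.92 ± 0.55 with shCREB3 and 9.66 ± 0.55 with Scrambled (SD, n = 4 lines each).

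With shCREB2, RAB8B was lower by a log2 difference of -1.10 ± 0.15 (standard error over 4 lines, limma adjusted p = 0.00988), which is 0.467 times the Scrambled level. With shCREB3 the log2 difference was -0.74 ± 0.15 (adjusted p = 0.0547 from limma), or 0.598 times the Scrambled level, and did not pass the test. It passed in 12 of 29 alternatives, among them the methods' paired t-test by its unadjusted p. The adjusted p was 0.0424 with the brightest probe, 0.0389 with only the 8 arrays compared and 0.0036 without RS4;11 (limma). The difference between the shRNAs, shCREB3 minus shCREB2, was 0.36 ± 0.15 (adjusted p = 0.142 from limma). For both shRNAs averaged within each line the log2 difference was -0.92 (95% confidence interval -1.26 to -0.58, adjusted p = 0.0826 from limma), with -1.17 in Jurkat, -1.08 in Molt4, -1.12 in Nalm6 and -0.31 in RS4;11. Without RS4;11 it was -1.12 and passed the test (adjusted p = 0.00476 from limma). The shCREB2 call was lost without Jurkat (adjusted p = 0.129 from limma) and without Molt4 (adjusted p = 0.149 from limma), where 0 of all 12508 genes passed. The effect in T-ALL minus that in BCP-ALL lines was -0.41 (95% confidence interval -1.03 to 0.21, adjusted p = 0.976 from limma).

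**Figure D1:**
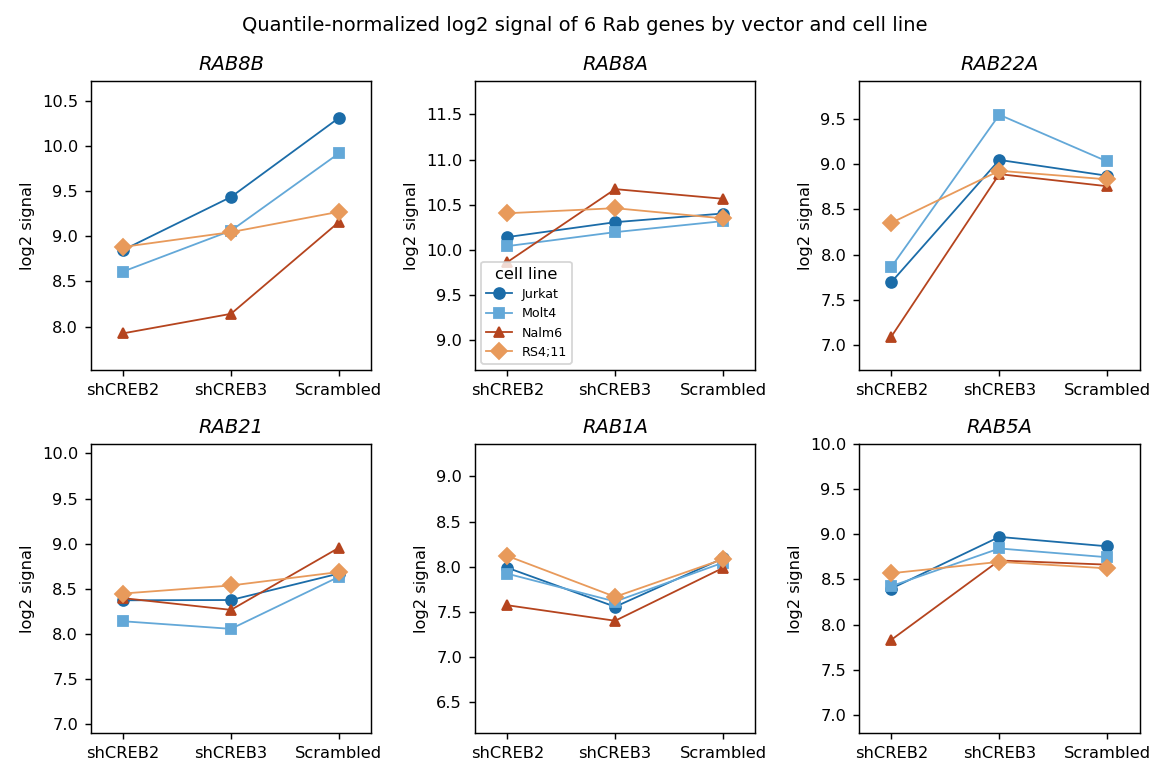
Log2 signal (vertical axis) of RAB8B, RAB8A, RAB22A, RAB21, RAB1A and RAB5A for shCREB2, shCREB3 and Scrambled, with 1 point per array and a line joining the arrays of a cell line. RAB8B is lowest with shCREB2 and highest with Scrambled in each line, whereas RAB22A and RAB5A are lower with shCREB2 only and RAB1A is lowest with shCREB3.

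RAB8A had log2 signals of 10.14, 10.04, 9.87 and 10.41 with shCREB2 in Jurkat, Molt4, Nalm6 and RS4;11. In the same order of lines it had 10.31, 10.20, 10.67 and 10.46 with shCREB3, and 10.40, 10.32, 10.57 and 10.35 with Scrambled. The 3 vectors overlapped. The log2 difference was -0.30 ± 0.12 for shCREB2 (adjusted p = 0.152 from limma) and 0.00 ± 0.12 for shCREB3 (95% confidence interval -0.26 to 0.26, limma adjusted p = 0.999), and neither passed the test. Without the Nalm6 array with shCREB2 the first of these was -0.14. RAB8B fell more than RAB8A in 4 of 4 lines, by a difference of the averaged log2 differences of -0.77 ± 0.26 (SD, n = 4, two-sided exact sign-flip p = 0.13, the smallest p that 4 lines allow).

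Of 9 such paralog pairs among the Rabs, tested for both shRNAs averaged and for each alone, none of the 27 comparisons could pass 0.05, and after adjustment over the 27 the smallest exact p was 0.241. The log2 difference of RAB1B lay above that of RAB1A in 4 of 4 lines with shCREB3, by 0.51 ± 0.19 (SD, n = 4, exact p = 0.13). That of RAB5C lay above that of RAB5A in 4 of 4 lines with shCREB2, by 0.73 ± 0.40 (SD, n = 4, exact p = 0.13). For RAB33B and RAB33A the gap was 0.01 ± 0.23 for both shRNAs averaged (SD, n = 4, exact p = 1). RAB33A was detected on no BCP-ALL array, and RAB33B on 0 arrays of Molt4 and 1 array of Jurkat. In each line a side of this gap is thus mostly background. The gap therefore cannot show whether these paralogs responded alike. Probe sequences were not used here, and cross-hybridisation between paralogs was not tested.

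**Figure D2:**
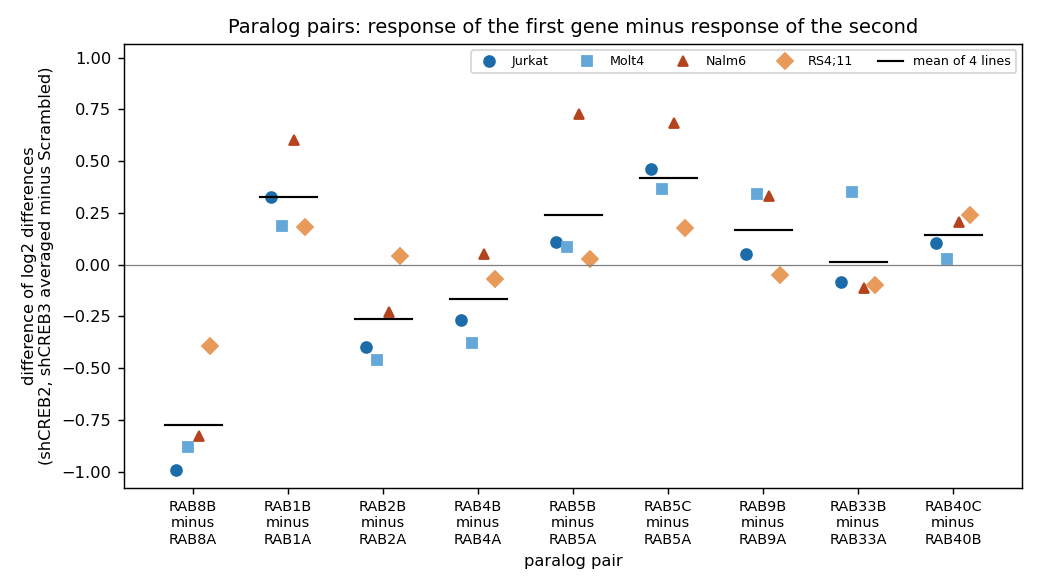
For each of 9 paralog pairs (horizontal axis), the log2 difference from Scrambled of the first gene minus that of the second (vertical axis), with both shRNAs averaged, 1 point per cell line and a bar at the mean. RAB8B minus RAB8A lies lowest, with all 4 lines below 0, and RAB5C minus RAB5A has all 4 lines above 0.

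For both shRNAs averaged 0 of 38 Rabs passed the test in limma, as did 0% of the 12508 genes. Before adjustment, limma put 5 Rabs higher and 10 lower at p under 0.05, 15 of 38 against 21.7% of all genes. The methods' t-test, paired by line, called 8 Rabs at an unadjusted p under 0.05, against 14% of all genes, and 0 after Benjamini-Hochberg adjustment. The median log2 difference was -0.01 over the Rabs and 0.01 over all genes. All 8 shCREB arrays differed from Scrambled of their line in the same direction for 8 of 38 Rabs, against 8.67% of all genes. RAB8B, RAB21, RAB9A and RAB18 were lower on these 8 arrays and RAB5C, RAB40C, RAB11A and RAB4A were higher. RAB18 was detected on 1 of 4 shCREB2 arrays, and its signals of 7.01 to 7.35 lay near the lowest detected ones (7.06 to 7.11). After RAB8B the lowest averaged log2 differences were -0.45 for RAB22A and -0.41 for RAB21, and the highest were 0.27 for RAB40C, 0.25 for RAB5C and 0.23 for RAB11A, a Rab of recycling endosomes. The value of RAB22A was -0.22, -0.24 and -0.28 without the shCREB2 array of Nalm6, Molt4 or Jurkat, where RAB21 had -0.43, -0.42 and -0.41.

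With shCREB2 alone 5 of 38 Rabs (13.2%) passed the test, against 7.28% of all genes. RAB8B, RAB22A and RAB21 fell, and RAB5C and RAB40C rose. This count was 6 without the Nalm6 array with shCREB2 (6.23% of all genes), and 0 without Jurkat or without Molt4. It was also 0 when only the 8 arrays compared were fitted, where 0 of all genes passed. Leaving out the shCREB2 array of RS4;11 gave 11 (11.4% of all genes), that of Jurkat 1 (0.544%) and that of Molt4 0, and leaving out the Scrambled array of Jurkat or of Molt4 gave 0.

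RAB22A, which works between early and recycling endosomes, fell with shCREB2 and did not fall with shCREB3. Its log2 signals with shCREB2 were 7.70, 7.86, 7.09 and 8.35 in Jurkat, Molt4, Nalm6 and RS4;11, and with shCREB3 they were 9.05, 9.55, 8.89 and 8.93. Scrambled had 8.87, 9.03, 8.76 and 8.83 in the same order. All 4 shCREB2 arrays lay below all 8 others, and shCREB3 lay above Scrambled in each line. The log2 difference was -1.12 ± 0.18 for shCREB2 (standard error, n = 4, adjusted p = 0.0146 from limma), or 0.46 times the Scrambled level, within its error of that of RAB8B, and 0.23 ± 0.18 for shCREB3 (adjusted p = 0.56 from limma). Set directly against each other, shCREB3 was 2.55 times shCREB2 (log2 difference 1.35 ± 0.18, adjusted p = 0.00555 from limma), and this was the largest difference between the shRNAs among the Rabs. Without Jurkat it was 1.35 with an adjusted p of 0.0875 from limma, and without Molt4 1.24 with 0.0858.

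RAB21, which accompanies integrins into endosomes, fell with either shRNA. Its log2 signals were 8.37, 8.14, 8.40 and 8.45 with shCREB2 and 8.38, 8.06, 8.27 and 8.54 with shCREB3 in Jurkat, Molt4, Nalm6 and RS4;11. With Scrambled they were 8.67, 8.63, 8.96 and 8.69. Each of the 8 shCREB arrays lay below each of the 4 Scrambled arrays. The log2 difference was -0.40 ± 0.08 for shCREB2 (adjusted p = 0.0233 from limma) and -0.43 ± 0.08 for shCREB3 (adjusted p = 0.0456 from limma). Without Jurkat these had adjusted p of 0.133 and 0.306 from limma, and without Molt4 0.178 and 0.406. Without Nalm6 the shCREB3 call was lost as well (adjusted p = 0.087 from limma). Over all alternatives the shCREB2 call was lost in 11 of 29 and the shCREB3 call in 19 of 29. The direction held in each of them.

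Of the 3 RAB5 genes, whose proteins drive the fusion of early endosomes, RAB5C passed the test with shCREB2, and RAB5A and RAB5B passed with neither shRNA against Scrambled. RAB5C had log2 signals of 8.76, 8.85, 9.14 and 8.38 with shCREB2 and of 8.66, 8.81, 8.88 and 8.28 with shCREB3 in Jurkat, Molt4, Nalm6 and RS4;11. With Scrambled it had 8.43, 8.58, 8.72 and 8.14, below both shRNAs in each line. It rose by 0.32 ± 0.05 with shCREB2 (adjusted p = 0.0131 from limma), and its log2 difference with shCREB3 was 0.19 ± 0.05 (adjusted p = 0.0945 from limma). RAB5A had a log2 difference of -0.42 ± 0.11 with shCREB2 (adjusted p = 0.0517 from limma) and of 0.08 ± 0.11 with shCREB3 (adjusted p = 0.774 from limma). For RAB5B these were -0.09 ± 0.09 and 0.23 ± 0.09 (adjusted p = 0.56 and 0.223 from limma). RAB40C, which recruits a ubiquitin ligase through its SOCS box, rose by 0.35 ± 0.06 with shCREB2 (adjusted p = 0.0157 from limma), with 9.96 to 10.30 on the shCREB2 arrays and 9.65 to 9.96 on the Scrambled arrays.

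With shCREB3 alone 2 of 38 Rabs (5.26%) passed the test, against 1.01% of all genes, and both fell. These were RAB21 and RAB1A, which moves vesicles between the ER and the Golgi. RAB1A had log2 signals of 7.56, 7.62, 7.40 and 7.67 with shCREB3 in Jurkat, Molt4, Nalm6 and RS4;11, against 8.09, 8.05, 7.99 and 8.08 with Scrambled. These groups did not overlap, and shCREB2 lay between them in 3 of 4 lines, with 7.99, 7.92, 7.58 and 8.12. The log2 difference of RAB1A was -0.49 ± 0.07 with shCREB3 (adjusted p = 0.0339 from limma) and -0.15 ± 0.07 with shCREB2 (adjusted p = 0.197 from limma). RAB1B, its paralog, had 0.02 with shCREB3. The count of Rabs called with shCREB3 was 5 without the Nalm6 array with shCREB2 (5.6% of all genes), 4 without RS4;11 (2.27%) or without its Scrambled array (1.69%), and 0 without Jurkat, Molt4 or Nalm6. It was also 0 without the shCREB3 or the Scrambled array of any of these 3 lines and without the shCREB2 array of Jurkat or of Molt4.

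Between the shRNAs, shCREB3 against shCREB2, 7 of 38 Rabs (18.4%) passed the test, against 14.2% of all genes. Higher with shCREB3 were RAB22A, RAB5A, RAB15, RAB5B and RAB38, and lower were RAB2A and RAB1A. RAB5A had 8.97, 8.84, 8.71 and 8.69 with shCREB3, against 8.40, 8.43, 7.83 and 8.57 with shCREB2, in Jurkat, Molt4, Nalm6 and RS4;11 (log2 difference 0.50 ± 0.11, adjusted p = 0.0201 from limma). All 4 shCREB3 arrays lay above all 4 shCREB2 arrays, and without the Nalm6 array with shCREB2 the log2 difference was 0.37. RAB2A, which acts in transport at the Golgi, ran the other way with 8.41, 8.36, 8.24 and 8.71 for shCREB3, against 8.88, 9.08, 9.04 and 8.80 for shCREB2 (log2 difference -0.52 ± 0.10, adjusted p = 0.0126 from limma). Its Scrambled signals of 8.57, 8.68, 8.48 and 8.76 lay between the 2 shRNAs in each line.

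RAB15, a Rab of receptor recycling, differed by 0.43 ± 0.10 (adjusted p = 0.0246 from limma) with no array of Nalm6 above detection. RAB5B differed by 0.32 ± 0.09 (adjusted p = 0.0424 from limma), RAB1A by -0.34 ± 0.07 (adjusted p = 0.0132 from limma), and the adjusted p of RAB38 was 0.0465 from limma. RAB38 was detected on 3 shCREB3, 1 shCREB2 and 1 Scrambled array, so its call rests on signals mostly not above background, and it was lost in 21 of 28 alternatives. RAB10, which brings vesicles to the cell surface, had 0.43 ± 0.17 and RAB4B, a Rab of fast recycling, -0.30, and neither passed the test (adjusted p = 0.119 and 0.0735 from limma). Without the Nalm6 array with shCREB2 RAB10 had 0.19 and RAB4B -0.16 (adjusted p = 0.103 and 0.0471 from limma). The count of 7 was 0 without Jurkat, without Molt4 and when only the 8 arrays compared were fitted. Leaving out single arrays gave 2 to 4 for the shCREB2 or shCREB3 arrays of Jurkat and Molt4 and the shCREB3 array of Nalm6 (4.09% to 6.31% of all genes), and 13 for the shCREB2 array of RS4;11 (17%).

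**Figure D3:**
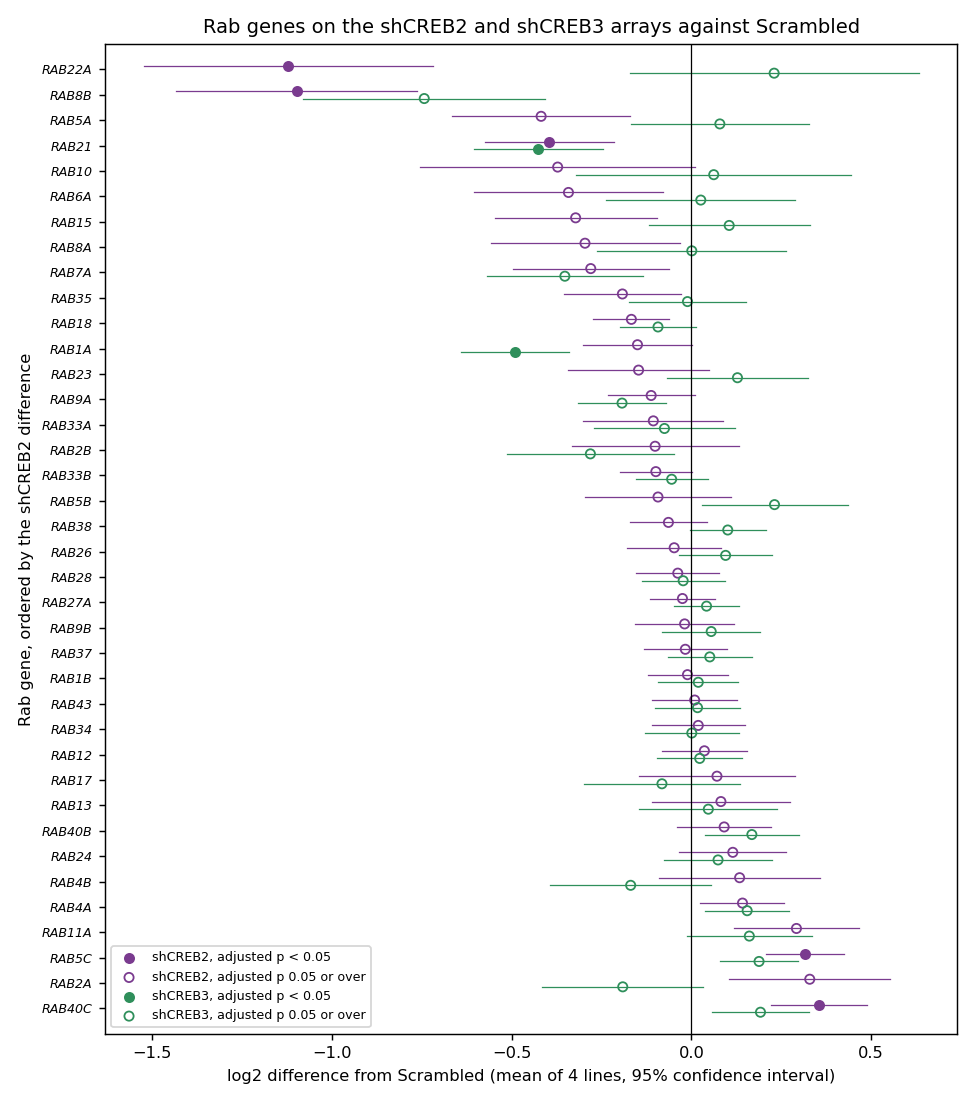
Log2 difference from Scrambled (horizontal axis, mean of 4 lines with 95% confidence interval) for the 38 Rabs, ordered by shCREB2, with filled points at an adjusted p under 0.05 from limma. RAB22A and RAB8B lie farthest to the left with shCREB2, and RAB8B has the lowest shCREB3 value at -0.74.

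With shCREB2, 3 of 38 Rabs and 475 of 12508 genes were called down. By compartment, these 3 were 2 of 9 Rabs of the early endosome and 1 of 8 of recycling and exocytosis. The calls up were 1 of the same 9, RAB5C, and 1 of the 2 with no such class, RAB40C. In the ER and Golgi class 0 of 10 passed. Counts this small do not set a compartment apart. With shCREB2, 25 of 38 Rabs had negative values. The median was -0.056 over the Rabs and 0.009 over all genes, and this difference was not tested. Among the 25 were 3 of 3 of regulated secretion, RAB26, RAB27A and RAB37, with -0.048, -0.025 and -0.017. These values were smaller in size than their standard errors, and all 3 Rabs had positive values with shCREB3. They were detected on 8, 11 and 9 arrays. All 6 Rabs of the late endosome class, which includes RAB23 and RAB28, also had negative values with shCREB2. With shCREB3, 3 of the 6 did. The median of that class with shCREB2 was -0.09, and none of the 6 passed the test. Among them RAB7A, the main Rab of late endosomes and lysosomes, had a log2 difference of -0.28 with shCREB2 and -0.35 with shCREB3 (adjusted p = 0.11 from limma for each). RAB9A, which returns cargo from late endosomes to the Golgi, was lower on 8 of 8 arrays with -0.11 and -0.19, and RAB9B had -0.02 and 0.05. The median absolute log2 difference of the Rabs was 0.21 for shCREB2 in Nalm6 (0.16 over all genes), 0.11 to 0.15 for the other arrays of Jurkat, Molt4 and Nalm6 (0.09 to 0.12 over all genes), and 0.07 for either shRNA in RS4;11 (0.06 to 0.07 over all genes).

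The effect of both shRNAs averaged, in T-ALL minus BCP-ALL lines, passed the test for 0 of 38 Rabs in limma, as for 0% of all genes. Before adjustment, limma put 0 Rabs higher and 2 lower at p under 0.05, RAB13 and RAB2B, against 4.32% of all genes. RAB2B had -0.36 as this difference. RAB13 was detected on 0 arrays of Jurkat and of Molt4, so its T-ALL side is background and its difference cannot be read as a response.

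Over the 4 lines 26 of 38 Rabs (68.4%) passed the limma F-test, a share below the 74.2% of all genes, and the range of the line means had a median of 0.47 over the Rabs and 0.43 over all genes, on the log2 scale. Here the 3 arrays of a line, with different vectors, are the repeats, so the test speaks of these 4 lines. RAB17, RAB34, RAB13 and RAB33A were not above detection on any array of 1 or 2 lines, so their ranges are bounds, of at least 2.24 for RAB17 (RS4;11 over Jurkat), 2.23 for RAB34 (RS4;11 over Molt4), 1.57 for RAB13 (RS4;11 over Jurkat) and 1.27 for RAB33A (Jurkat over RS4;11).

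RAB17, known from transcytosis in epithelial cells, was detected on 0 of 6 T-ALL arrays and on all 6 BCP-ALL arrays. Its log2 signals were 6.73 to 6.83 in the T-ALL lines, against 7.71 to 8.31 in Nalm6 and 9.24 to 9.34 in RS4;11. Set against the lowest detected signal of each array, RAB17 was at least 3.03-fold lower in T-ALL than in BCP-ALL lines, and RS4;11 was at least 4.72-fold above Jurkat. RAB13, a Rab of epithelial junctions, was also detected on 0 of 6 T-ALL arrays, with 6.89 to 7.07, against 7.90 to 8.27 in Nalm6 and 8.52 to 8.75 in RS4;11, and was at least 2.41-fold lower in T-ALL.

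RAB34, which acts at the Golgi and in cilium formation, had 6.91 to 7.09 in the T-ALL lines, with 2 of 6 arrays above detection, against 7.77 to 7.86 in Nalm6 and 9.20 to 9.40 in RS4;11. RAB33A, a paralog of the autophagy-linked RAB33B, showed the opposite pattern with 8.31 to 8.40 in Jurkat and 7.70 to 8.19 in Molt4, against 6.81 to 6.97 on the 6 BCP-ALL arrays, none of them above detection. It was at least 2.09-fold higher in T-ALL than in BCP-ALL lines. RAB33B was detected on all 6 BCP-ALL arrays and on 1 of 6 T-ALL arrays, with line means between 6.96 and 7.22.

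**Figure D4:**
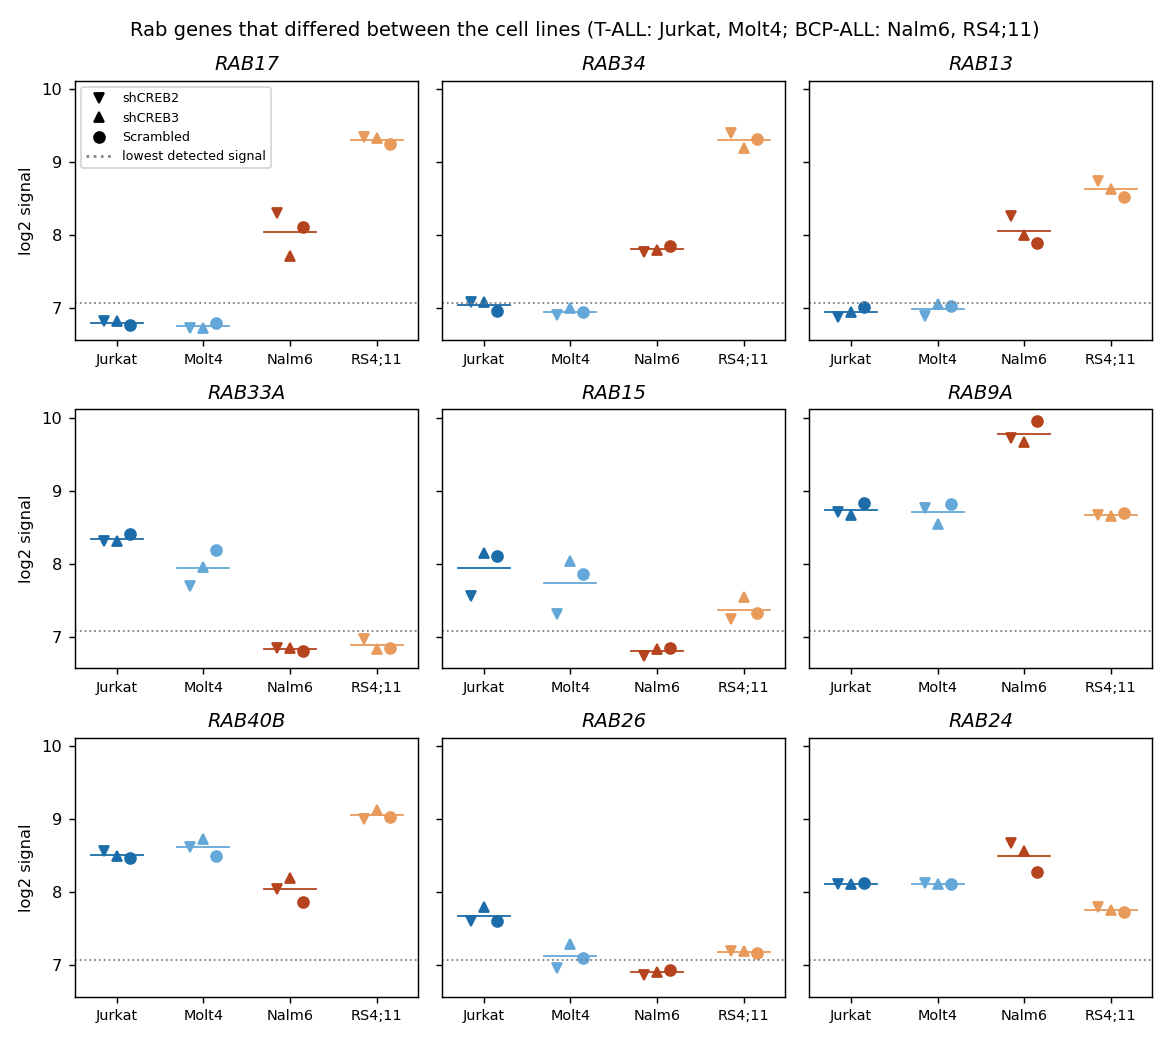
Log2 signal (vertical axis) of 9 Rabs in the 4 cell lines, with 1 point per array marked by vector, a bar at the line mean and a dotted line at the mean over arrays of the lowest detected signal. RAB17, RAB34 and RAB13 are highest in RS4;11 and RAB33A is high in Jurkat and Molt4. The points of the 3 vectors lie apart in some panels, as for RAB15 in Jurkat and Molt4 and for RAB17 in Nalm6.

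None of the 38 Rabs passed the test between lineages, with 2 T-ALL lines against 2 BCP-ALL lines, where 1.01% of all genes did. RAB17, RAB13 and RAB33A entered the fit only through the lineage in which they were high, so the bounds above stand for their differences (adjusted p = 0.217, 0.151 and 0.108 from limma). RAB34 and RAB15 likewise met the rule of 4 arrays only through the lineage in which they were high. RAB34 was above detection on 2 arrays of Jurkat and 0 of Molt4, and RAB15 on 0 of Nalm6 and 3 of RS4;11. Their log2 differences, T-ALL minus BCP-ALL, were -1.56 ± 0.56 and 0.75 (adjusted p = 0.301 and 0.27 from limma). Neither is read as a test of lineage. RAB8B, detected on all 12 arrays, had 0.63 (adjusted p = 0.371 from limma). Before adjustment, limma put 2 Rabs higher and 4 lower in T-ALL at p under 0.05, 6 of 38 against 16.9% of all genes. RAB17, RAB13, RAB33A and RAB15 are among these 6, so detection in 1 lineage alone or mainly in 1 lineage chose part of this count as well. The 6 T-ALL arrays and the 6 BCP-ALL arrays did not overlap for 5 of 38 Rabs (RAB17, RAB34, RAB13, RAB33A and RAB28), against 19.6% of all genes. Detection in 1 lineage alone chose 3 of the 5, and RAB34 met the rule of 4 arrays only through the BCP-ALL lines. RAB28, a Rab of photoreceptor cilia, had 7.81 to 7.95 in T-ALL, against 7.30 to 7.71 in BCP-ALL lines. Lineage and the other features of 2 lines each cannot be told apart.

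Other Rabs set a single line apart. RAB9A had 9.68 to 9.95 in Nalm6, against line means of 8.67 to 8.74 elsewhere (range of line means 1.11, adjusted p = 6.35e-07 from limma). RAB40B, a paralog of RAB40C, had line means of 8.04 in Nalm6, 8.51 in Jurkat, 8.62 in Molt4 and 9.05 in RS4;11, with SDs of 0.05 to 0.16 (n = 3 arrays), so Jurkat and Molt4 did not differ beyond their spread. RAB15 was detected in 3 lines and on 0 arrays of Nalm6, and Jurkat was at least 1.81-fold above Nalm6. RAB26, a Rab of secretory granules, likewise was not detected in Nalm6, and Jurkat was at least 1.5-fold above it. RAB9B was detected on 9 arrays and on none of Nalm6, the line in which RAB9A was highest. RAB24, which is linked to autophagy, was highest in Nalm6 with 8.28 to 8.67 and lowest in RS4;11 with 7.73 to 7.80. Its 5 probes did not all show this order, and some were detected on only 6 or 8 arrays. The brightest probe had signals of 669.3 to 970.1 in Nalm6, against 440.5 to 511.0 in the lowest line. Another probe, detected on all 12 arrays, had 168.8 to 177.5 in Nalm6, against 171.3 to 180.7 in that line. RAB37, a secretory Rab with 2 of 6 probes below detection on all arrays, was detected in 3 lines and on 0 arrays of Nalm6.

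The genes of the partners of the Rabs come from hand-made lists, and those named singly here were in part picked after their values were seen. Of 34 measured exchange factors 4 rose and 3 fell with shCREB2 (20.6%, against 7.28% of all genes), and 0 passed with shCREB3. GAPVD1, which loads RAB5, fell by 0.91 on the log2 scale (adjusted p = 0.00988 from limma), and RAB3GAP1, part of the exchange factor of RAB18, fell by 0.53 (adjusted p = 0.0193 from limma). The third was DENND2D, which fell by 0.28 (adjusted p = 0.0174 from limma). The 4 that rose, TRAPPC1, TRAPPC5, TRAPPC9 and TRAPPC2, are subunits of the TRAPP complexes, which load RAB1, and rose by 0.54, 0.40, 0.38 and 0.27 (adjusted p = 0.0337, 0.016, 0.0215 and 0.0471 from limma), among 9 TRAPP subunits measured. TRAPPC6A had 0.66 (adjusted p = 0.0687 from limma). With shCREB3, RAB3GAP1 had -0.31, DENND2D -0.17 and HPS4 0.21 (adjusted p = 0.151, 0.138 and 0.526 from limma).

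Of 30 measured GTPase-activating proteins 2 rose and 3 fell with shCREB2 (16.7%, against 7.28% of all genes), and 0 passed with shCREB3. EVI5L, a TBC-domain protein, rose by 0.87 (adjusted p = 0.0163 from limma) and TBC1D13, which acts on RAB35, by 0.47 (adjusted p = 0.0313 from limma). TBC1D9B and TBC1D2B each fell by 0.36 with shCREB2 (adjusted p = 0.0131 and 0.0472 from limma), and SGSM2 fell by 0.30 (adjusted p = 0.0324 from limma). EVI5L had 0.67 with shCREB3, where RABGAP1L had -0.42 (adjusted p = 0.0713 and 0.0653 from limma).

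Of 40 measured effectors 2 rose and 0 fell with shCREB2 (5%, against 7.28% of all genes). With shCREB3 0 rose and 1 fell (2.5%, against 1.01% of all genes). The shCREB2 share is thus not above that of all genes, and the shCREB3 share rests on 1 gene. Those that rose were ZFYVE20, which binds RAB4 and RAB5, by 0.30 and VPS18, a subunit of the tethers of RAB7 and RAB5, by 0.27 (adjusted p = 0.0478 and 0.0421 from limma). The one that fell was RABEP1, which binds RAB5 and RAB4, lower by 0.42 (adjusted p = 0.0339 from limma). FYCO1, a partner of RAB7, had 0.50 with shCREB3 (adjusted p = 0.12 from limma), and OCRL, an inositol phosphatase bound by several Rabs, had 0.43 with shCREB2 (adjusted p = 0.0825 from limma). Of 8 genes of prenylation and GDI, 0 passed with either shRNA against Scrambled by limma. Against shCREB2, shCREB3 gave a lower RABGGTB, the catalytic subunit of Rab prenylation (log2 difference -0.30 ± 0.06, adjusted p = 0.0168 from limma). Between the shRNAs, GAPVD1 was higher by 0.89 (adjusted p = 0.00555 from limma) and RABEP1 lower by 0.39 (adjusted p = 0.00669 from limma) with shCREB3. The list medians lay between -0.08 and 0.05 in the shRNA comparisons, and those of all genes between -0.01 and 0.01.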

How the data were processed

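Total RNA of 4 cell lines with 3 vectors each was profiled on 12 Illumina HumanHT-12 BeadChips. The authors deposited signals per probe without normalization, in 98.1% of which the decimal mark was lost, with 1 detection p-value per probe and array. The authors also deposited gene means, quantile-normalized, which the methods call log2 but which are on the natural log scale when set against the signals. These deposited values, divided by the natural log of 2, are the main values. The decimal marks of the signals were restored from them for the alternatives (2 symbols left out). Depth does not apply to arrays, and their number limits the precision. A symbol was used with a detection p under 0.01 on 4 or more arrays (12508 symbols).

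Single shRNAs were tested in limma 3.58.1 (R 4.3.3) over 12 arrays with the line as block. Lines were tested over the same arrays with the vector as block. The averaged shRNA effect was tested over the 4 differences per line, and the lineages over the 4 line means. Adjustment followed Benjamini and Hochberg over the 12508 symbols, and 0.05 was the threshold. The pairing comes from the shared cell line, and deviations from the vector means correlated at 0.83 to 0.96 within lines and at most 0.60 between lines. Paralogs were compared by exact sign flips over lines. A bound on a fold sets the mean of the detected lines against the lowest detected signal of each undetected array. The fits were tested on simulated data. Python 3.11.15 with pandas 2.3.3 and matplotlib 3.10.9 made the tables and figures.

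Members, lists and tests were chosen with earlier results of these data known. Named were RAB8B and RAB8A, Rabs past the test, the 3 highest and 3 lowest per comparison, the 10 widest ranges of line means, their paralogs, and up to 2 rises and 2 falls per list. Alternatives were other probe summaries, scalings, background corrections, filters and fits, the methods' t-test, and leaving out lines. Leaving out single arrays, other than that of Nalm6 with shCREB2, was added after seeing the data.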

Additional observations from a re-analysis of the deposited data

Results flagged for a closer look

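In 84 sets of 4 values (28 named Rabs, with shCREB2, shCREB3 and both averaged), 2 had a line far from the other 3 by Dixon's criterion, and chance flags about 1 in 20 such sets. For RAB8B with both shRNAs averaged, RS4;11 had a log2 difference of -0.31, and the other lines had -1.17 to -1.08. For RAB10 with both shRNAs averaged, Nalm6 had -0.58, and the other lines had -0.07 to 0.02. That of RAB10 comes from the shCREB2 array of Nalm6, which stood apart over all genes, with -1.14 against Scrambled there, and with shCREB3 Nalm6 had -0.03.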

How the results depend on the processing

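The count of Rabs called for both shRNAs averaged (0) was 1 with the brightest probe (0.967% of all genes), 2 with median scaling (1.19%), 8 and 6 with the methods' unadjusted paired and unpaired t-test (14% and 2.89%), and 0 to 4 with a line or an array left out. For RAB8B that difference was -0.92 with the brightest probe (adjusted p = 0.0476 from limma) and -0.90 with median scaling (adjusted p = 0.0458 from limma). By the methods' t-test it was -0.92, past the threshold unadjusted, and it was -0.84 at its smallest and -1.12 without RS4;11. Over its 28 alternatives the value lay between -1.13 and -0.84, with adjusted p between 0.00476 and 1.

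With shCREB2 the count (5) was 0 with no replicate block, with only the 8 arrays compared and with either t-test after Benjamini-Hochberg adjustment, and 0 to 11 with a line or an array left out. With shCREB3 the count (2) was 1 with normexp background (0.608% of all genes) and with no filter (0.134%), 0 with no replicate block, 10 with the paired t-test unadjusted (15.7% of all genes), 0 with either t-test adjusted, and 0 to 5 with a line or an array left out. Between the shRNAs the count (7) was 0 with no replicate block, with only the 8 arrays compared and with either adjusted t-test, and 0 to 13 with a line or an array left out. The cause of these changes was not tested. Between lineages the count (0) was 2 with normexp background (2.48% of all genes) and 0 to 2 with a line or an array left out, and over the lines the count (26) was 15 with detection on all 12 arrays, where fewer genes were tested. For the lineage difference in the shRNA effect each alternative gave 0.

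For the averaged effect, leaving out a Scrambled array left out its line, so those settings repeat fits in the totals that follow. The unadjusted t-tests enter these totals by their unadjusted p. For single Rabs, 863 of 1087 values under alternatives kept direction and side of the threshold, 166 lost and 54 gained the call, and 4 turned direction. These were all RAB8A with shCREB3 (0.00), which lay between -0.10 and 0.05 with a line or an array left out, with -0.04 without Nalm6 and without RS4;11, -0.10 without the shCREB3 array of Nalm6 and -0.08 without the Scrambled array of RS4;11. Gene means that include undetected probes (RAB12, RAB23, RAB27A, RAB37 and RAB43) understate differences.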
